A study of Mus musculus with 18 samples.

Results

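ERV1 elements are the mouse class I endogenous retroviruses, remnants of gammaretrovirus-like proviruses that carry an internal part between 2 long terminal repeats (LTRs). The internal part held the viral genes, and the LTRs hold the promoter and the end signal. Many copies are solitary LTRs. Histone H3 trimethylated at lysine 9 (H3K9me3) marks silenced repeats. G9a, encoded by Ehmt2, is a histone H3 lysine 9 methyltransferase best known for the mono- and dimethylated forms, while other enzymes, among them Setdb1, place the trimethyl mark at retroviruses.

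H3K9me3 was mapped by native chromatin immunoprecipitation (ChIP) in 2 KO and 2 WT libraries of C57BL/6 splenic CD8 T cells, cultured with antibodies to CD3 and CD28. The KO cells carried Ehmt2-/- and the WT cells Ehmt2+/+. The deposited peak list of each library gives every peak a repeat name, class and family where it falls in a repeat, on the mm9 build, and a peak was taken as an ERV1 peak where that family was ERV1. This gave 6831 ERV1 peaks of 375410 peaks (1.82%). They numbered 1796 and 2030 in KO lists, of 111149 and 154997 peaks. In WT lists they numbered 2370 and 635, of 85960 and 23304 peaks. A further 9 peaks with an uncertain ERV1 label were left out. The RNA libraries came from C57BL/6 T cells of lymph nodes and spleen, taken 4 weeks into their expansion in a host short of lymphocytes, so they are not the cells of the ChIP. They were 4 CD4+CD8+ KO libraries (KO DP), 2 CD4-CD8+ KO libraries (KO SP) and 4 CD4-CD8+ WT libraries (WT SP). How the allele was deleted, and whether libraries of a group came from separate animals, is not given in the sources used here.

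With 2 lists against 2, the smallest two-sided exact permutation p is 0.333, so that test could not pass for any difference between peak lists, and no other test was run on them. Each list's value is given instead, with whether the groups overlap. Both WT lists stand apart, in different ways. WT replicate 1 had 3.88% of its peaks on chromosome X, against 0.345% and 0.299% in KO and 0.837% in WT replicate 2, and 1 peak on chromosome Y or its unplaced sequence, against 94 and 100 in KO and 32 in WT replicate 2. WT replicate 2 had the shortest list. The step between neighbouring peak scores was 0.49 and 0.47 in KO lists and 0.54 and 1.6 in WT lists, which gives a relative depth of 3.27 and 3.40 in KO and 2.96 and 1 in WT if a step stands for 1 read at a common scale. The scaling of the score is not given in the sources used here. Results are therefore also given for the 23304 highest-scoring peaks of each list (equal list length) and without chromosomes X and Y, where these change them.

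Few ERV1 peaks reached the start of a gene, and the sequences of those starts that RefSeq tables hold are shown because H3K9me3 lay over them. The peaks that covered an annotated transcription start site (TSS) were 7 of 6831 (0.102%), against 0.379% of all peaks, at 5 genes. By list it was 0.111% and 0.148% in KO (all peaks 0.172% and 0.179%) and 0.0422% and 0.157% in WT (all peaks 0.942% and 0.622%), so the gap lay mostly in the WT lists. Each peak has a single detailed label, and no ERV1 peak was annotated to a promoter, exon or gene end. The set of all peaks includes such peaks. The shares therefore compare unlike sets, and the gap cannot be read as a trait of ERV1 elements. A sequence was found for 2 of the 5 genes. The start of Mir5103, a microRNA gene, lay under an RLTR4_MM-int peak, an internal part of a murine leukaemia virus-like element, in KO replicate 1 (3529 bp, mm9 chr1:34486930-34490459) and in WT replicate 2 (2592 bp). The start of Lelp1, a gene of the epidermal differentiation cluster, lay under an RLTR41 peak of 1402 bp in KO replicate 2 (mm9 chr3:91945505-91946907), in intron 1 of its transcript. That peak reached 231 bp upstream of the start. The sequences are from RefSeq on GRCm38.p6, which is not the build of the peaks; the seed (bases 2 to 8) is in capitals in the mature microRNA, the mature part in the hairpin, and CG in the promoter.
mmu-miR-5103, chr1:34433130-34433149, minus strand: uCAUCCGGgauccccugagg
Mir5103 hairpin, chr1:34433121-34433199, minus strand: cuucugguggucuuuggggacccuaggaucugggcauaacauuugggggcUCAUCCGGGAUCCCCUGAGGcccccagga
Lelp1 promoter, chr3:92142705-92143004, minus strand: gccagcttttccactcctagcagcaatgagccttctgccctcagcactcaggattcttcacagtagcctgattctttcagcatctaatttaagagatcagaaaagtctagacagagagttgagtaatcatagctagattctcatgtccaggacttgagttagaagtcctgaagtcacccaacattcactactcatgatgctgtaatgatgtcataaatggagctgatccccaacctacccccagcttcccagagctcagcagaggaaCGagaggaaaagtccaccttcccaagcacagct
The Lelp1 promoter window holds 1 CG, a motif that reads the same on both strands. Of all 32851 promoter windows 94.6% hold at least 1 CG, and 14.1% hold no more than this one. No other of the 1738 mature microRNAs in the table shares the seed of miR-5103. The other 3 genes whose start was covered were Usp17le (RMER2, KO replicate 1 and WT replicate 1), Pex5l (RMER21B, KO replicate 2) and 4930553E22Rik (RodERV21-int, KO replicate 2).

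The first comparison asked whether ERV1 elements held a different part of the H3K9me3 peaks in G9a KO cells. ERV1 elements made up 1.62% and 1.31% of the peaks in KO lists, with 95% Wilson intervals of 1.54 to 1.69% and 1.25 to 1.37%. In WT lists they made up 2.76% and 2.72%, with intervals of 2.65 to 2.87% and 2.52 to 2.94%. Both KO shares were below both WT shares, and the KO minus WT difference of means was -1.28 percentage points. The intervals cover counting error only. By length, ERV1 peaks held 2.03% and 1.61% of the covered bases in KO and 3.74% and 3.99% in WT. Among peaks at LTR elements of any family, ERV1 peaks were 8.61% and 6.96% in KO and 13.1% and 12.6% in WT.

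At equal list length the gap in peak share did not separate the groups. ERV1 peaks were then 667 and 570 of the KO peaks (2.86% and 2.45%) and 1063 and 635 of the WT peaks (4.56% and 2.72%), so KO replicate 1 lay above WT replicate 2. By covered length at equal list length the KO values, 3.20% and 2.47%, stayed below the WT values, 5.35% and 3.99%. Among the other retroviral families, the ratio of mean peak shares, KO over WT, was 0.678 for ERVK, 1.81 for ERVL and 1.12 for MaLR, against 0.534 for ERV1. With the lists at equal length the ratio was 0.729 for ERV1, 0.741 for ERVK, 1.93 for ERVL and 1.15 for MaLR. ERV1 and ERVK thus differed by less at equal list length than in the full lists, and their difference was not tested.

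**Figure D1:**
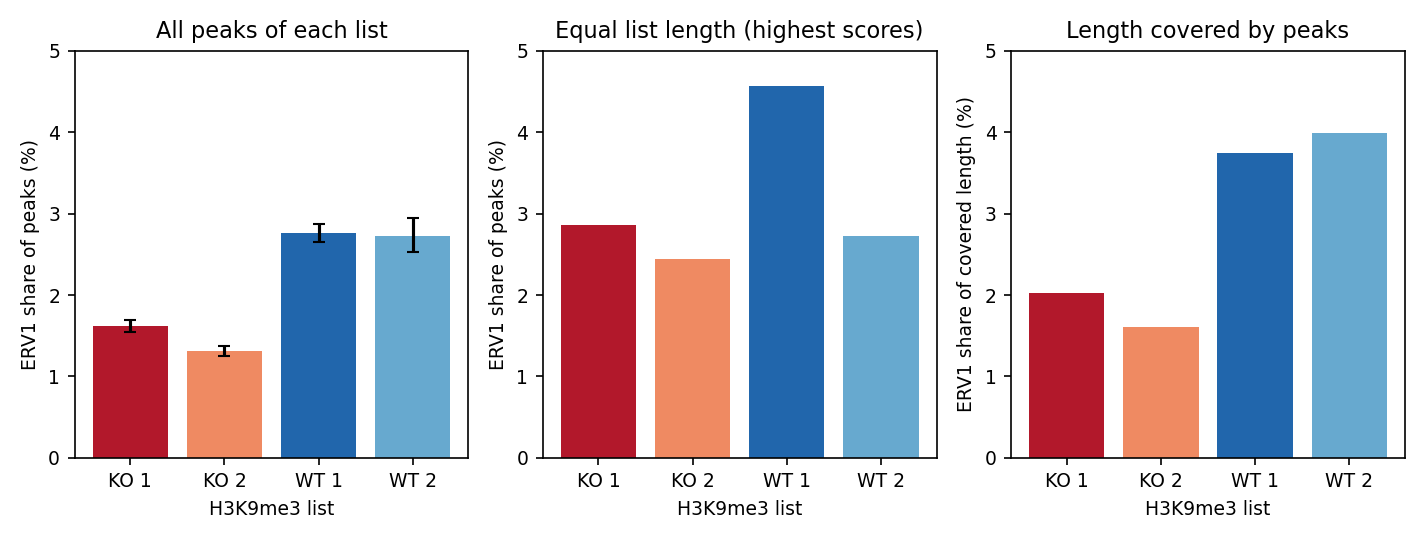
Share of ERV1 peaks in each H3K9me3 list, among all peaks (left, with 95% Wilson intervals) and among the 23304 highest-scoring peaks (middle), and ERV1 share of the bases covered by peaks (right), all in percent. In full lists both KO values lie below both WT values, while at equal list length KO replicate 1 (2.86%) lies above WT replicate 2 (2.72%).

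ERV1 peaks were wider and scored higher than other peaks of the same list in all 4 libraries. The median ERV1 peak was 649 and 703 bp wide in KO lists and 797 and 673 bp in WT lists. The median of all peaks was 500 and 628 bp in KO and 631 and 500 bp in WT, 500 bp being a width that 47.0 to 60.7% of the peaks of a list shared. The median score of ERV1 peaks stood at percentile 66.8 and 63.2 of its list in KO and 68.1 and 69.8 in WT, the median of all peaks being near percentile 50 by construction. The top 10% of scores held 24.1% and 21.5% of ERV1 peaks in KO and 23.4% and 25.8% in WT. Widths overlapped between the genotypes. KO percentiles lay below WT percentiles by 3.98 points in the mean. They overlapped at equal list length, with 66.5 and 62.2 in KO and 64.8 and 69.8 in WT.

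All ERV1 peaks were annotated as intergenic or intronic. This follows from the selection, as a detailed label names either a repeat or a gene part such as a promoter or exon. Introns held 16.5% and 15.4% of ERV1 peaks in KO and 14.3% and 19.2% in WT. Of all peaks, those at promoters and exons included, introns held 27.0% and 26.8% in KO and 27.6% and 30.1% in WT. ERV1 peaks nevertheless lay nearer to gene starts than peaks in general, with a median distance to the nearest TSS of 76.2 and 89.0 kb in KO and 58.4 and 31.6 kb in WT. For all peaks it was 146 and 148 kb in KO and 103 and 59.6 kb in WT. On chromosome 17 lay 5.79% and 4.93% of ERV1 peaks in KO and 4.94% and 5.35% in WT, more than the 3.71 to 4.09% of all peaks. Chromosome 2 held fewer of them, 5.23% and 5.37% in KO and 5.40% and 5.20% in WT, against 6.46 to 7.34% of all peaks. Chromosome X held 20 and 19 ERV1 peaks in KO and 146 and 8 in WT. These were 1.11% and 0.936% of ERV1 peaks in KO and 6.16% and 1.26% in WT. Of all peaks, X held less in each list, 0.345% and 0.299% in KO and 3.88% and 0.837% in WT.

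ERV1 peaks carried 84 element names, 69 and 75 of them in KO lists and 64 and 46 in WT lists, and 42 occurred in every list. Of the 84 names, 40 had at least 20 peaks summed over the lists. The other 44 names shared 262 peaks. For 21 of the 40 names (52.5%) both KO shares of the list lay below both WT shares, for 11 (27.5%) both lay above, and for 8 the groups overlapped. Among all 503 repeat names of any family with at least 20 peaks, the KO shares were lower for 28.6% and higher for 33.8%. In lists of equal length 28 ERV1 names had at least 20 peaks, and 7 were lower and 7 higher (25% each), of which 7 and 5 had the same call in the full lists, while the background was 20.9% lower and 29.4% higher of 316 names.

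Directions differed between the element groups, a difference that was not tested. No KO share was lower among 7 names of older ERV1 elements (names starting with MER, LTR and a digit, or PRIMA), of which 5 were higher. KO shares were lower for 3 of 3 VL30 names, 6 of 6 MERGLN and RLTR1 names, 7 of 8 MuRRS names and 2 of 2 MURVY names, with none higher. The 2 MuLV names overlapped between genotypes. Of the 12 remaining names 6 were higher, 3 lower and 3 overlapped. These are shares of lists with very different lengths, so a lower share does not say that fewer sites carried the mark.

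**Figure D2:**
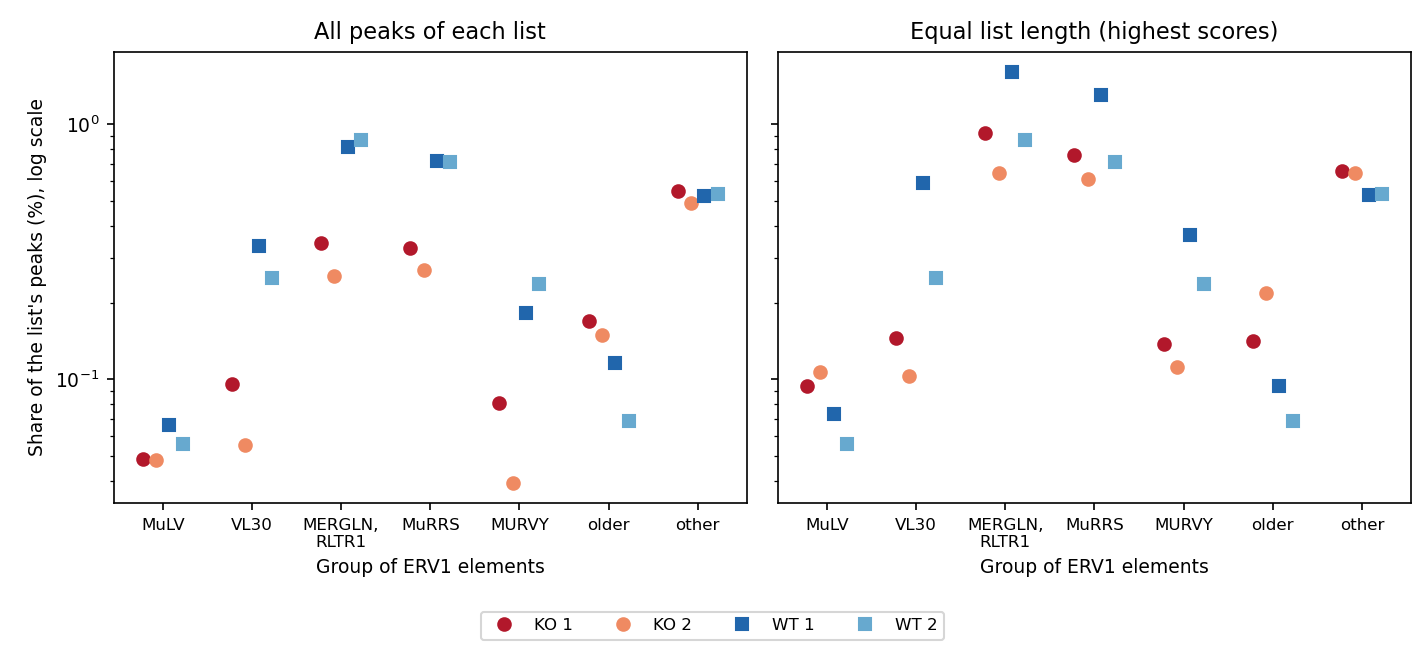
Share of each H3K9me3 list held by 7 groups of ERV1 elements, in percent on a log axis, in full lists (left) and at equal list length (right); each point is 1 list. VL30 and MURVY lie lower and older ERV1 elements higher in KO in both panels, while MuLV lies lower in KO in full lists (0.0486% and 0.0484%) and higher at equal list length (0.0944% and 0.107%).

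VL30 elements, virus-like retrotransposons that are transmitted with leukaemia viruses in mouse cells, were the group with the lowest KO over WT ratio of mean shares, 0.260. They had 107 and 86 peaks in KO lists and 288 and 58 in WT lists. These were 0.0963% and 0.0555% of the KO peaks and 0.335% and 0.249% of the WT peaks, and the groups did not overlap. In the shortened lists the counts were 34 and 24 in KO and 137 and 58 in WT, again without overlap. RLTR6-int, a VL30 internal part, had 66 and 59 peaks in KO and 226 and 41 in WT, a ratio of shares of 0.222. It held 3.67% and 2.91% of ERV1 peaks in KO and 9.54% and 6.46% in WT. RLTR6-int at equal list length had 17 and 13 peaks in KO and 105 and 41 in WT. RLTR6_Mm, the VL30 LTR, had 10 and 3 peaks in KO and 29 and 8 in WT, a ratio of 0.161, but overlapped in the shortened lists with 8 and 2 in KO and 17 and 8 in WT. WT replicate 1 had 27 of its VL30 peaks on chromosome X (9.38%), against 1 and 0 in KO and 1 in WT replicate 2. Without chromosomes X and Y the VL30 ratio was 0.271.

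MERGLN and RLTR1 elements are proviruses named after the glutamine tRNA that primed them, and their LTRs. They had 382 and 396 peaks in KO lists (0.344% and 0.255%) and 699 and 203 in WT lists (0.813% and 0.871%), a ratio of 0.356. Among the 23304 highest scores they held 0.927% and 0.644% in KO and 1.60% and 0.871% in WT, so KO replicate 1 exceeded WT replicate 2 and the groups overlapped. RLTR1B was the most frequent ERV1 name. It had 175 and 165 peaks in KO, or 9.74% and 8.13% of ERV1 peaks, and 337 and 107 in WT, or 14.2% and 16.9%. Its share of the list was 0.157% and 0.106% in KO and 0.392% and 0.459% in WT, a ratio of 0.310. RLTR1B peaks were among the stronger ones of every list, with median score percentiles of 90.1 and 85.8 in KO and 76.9 and 83.01 in WT. These percentiles are within lists of different length and were not compared between genotypes. Among the 23304 highest scores RLTR1B had 118 and 85 peaks in KO and 186 and 107 in WT, which overlapped, with a ratio of 0.693. MMERGLN-int, the internal part, had 75 and 84 peaks in KO and 125 and 39 in WT, a ratio of 0.389, with median percentiles of 75.2 and 73.0 in KO and 83.02 and 78.0 in WT.

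MuRRS elements, murine retrovirus-related sequences with LTRIS repeats as their LTRs, had 365 and 416 peaks in KO (0.328% and 0.268%) and 619 and 166 in WT (0.720% and 0.712%), a ratio of 0.417. In the lists of equal length they held 0.760% and 0.614% in KO and 1.30% and 0.712% in WT, which overlapped. LTRIS2, their most frequent LTR, had 139 and 150 peaks in KO and 248 and 82 in WT, a ratio of 0.346. MuRRS4-int had 109 and 150 peaks in KO and 137 and 34 in WT, with shares of the list of 0.0981% and 0.0968% in KO and 0.159% and 0.146% in WT. Its ratio of 0.638 was the nearest to 1 among the named MuRRS elements. MuRRS-int had 43 and 51 peaks in KO and 98 and 18 in WT, a ratio of 0.374. In the shortened lists LTRIS2 stayed apart, with 81 and 65 peaks in KO and 137 and 82 in WT and a ratio of 0.667. MuRRS4-int (34 and 43 in KO, 58 and 34 in WT) and MuRRS-int (18 and 10 in KO, 52 and 18 in WT) overlapped there. LTRIS3 had 12 and 10 peaks in KO and 26 and 8 in WT (ratio 0.267), and RLTR5_Mm 6 and 3 in KO and 23 and 5 in WT (ratio 0.152). In the shortened lists LTRIS3 overlapped, with 8 and 4 in KO and 12 and 8 in WT (ratio 0.600), while RLTR5_Mm had 2 and 0 in KO and 6 and 5 in WT. LTRIS_Mus, which the list of groups did not place with MuRRS, had 59 and 44 peaks in KO and 104 and 35 in WT, a ratio of 0.300 in full lists and 0.641 in the shortened ones.

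MURVY elements were first described as repeats of the Y chromosome, and most of their peaks lay elsewhere. The lists hold few Y peaks of any kind, 94 and 100 in KO and 1 and 32 in WT. The peaks therefore do not show where most marked MURVY copies lie. MURVY elements had 90 and 61 peaks in KO and 157 and 55 in WT, a ratio of 0.287. The shortened lists held 32 and 26 in KO and 86 and 55 in WT, without overlap. On chromosomes other than X and Y and outside unplaced sequence, 86 and 59 remained in KO and 146 and 52 in WT, with a ratio of 0.288. MURVY-LTR accounted for most of them, with 66 and 39 peaks in KO and 130 and 43 in WT. Its share of the list was 0.0594% and 0.0252% in KO and 0.151% and 0.185% in WT, a ratio of 0.252, and 0.448 in the shortened lists, without overlap in either.

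Shares of older ERV1 elements were higher in KO. Older ERV1 elements had 188 and 231 peaks in KO lists (0.169% and 0.149%) and 100 and 16 in WT lists (0.116% and 0.0687%), a ratio of 1.72. The shortened lists held 33 and 51 in KO and 22 and 16 in WT, a ratio of 2.21, without overlap. Their peaks ranked near or below the middle of their lists, with median score percentiles of 46.6 and 50.5 in KO and 42.3 and 48.2 in WT. These were below the percentiles of the MERGLN and RLTR1 group (83.6 and 74.9 in KO, 75.1 and 79.9 in WT). MER21B had 44 and 64 peaks in KO and 29 and 2 in WT, a ratio of 1.91. MER89 had 6 and 17 in KO and 3 and 1 in WT, and MER67C 7 and 11 in KO and 2 and 1 in WT. With so few peaks in WT replicate 2, these last ratios, 2.10 and 2.02, rest on single peaks. MER89 overlapped in the shortened lists, with 1 and 5 peaks in KO and 1 and 1 in WT.

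The remaining names as a group overlapped in full lists, with a ratio of 0.987. At equal list length they held 0.657% and 0.648% in KO and 0.528% and 0.532% in WT, a ratio of 1.23, without overlap. Among them RMER5 had 100 and 115 peaks in KO and 30 and 12 in WT. Its share of the list was 0.0900% and 0.0742% in KO and 0.0349% and 0.0515% in WT, a ratio of 1.90. RMER5 peaks were mostly 500 bp wide and ranked below the middle of their list, at median percentiles of 40.1 and 45.9 in KO and 31.0 and 42.6 in WT. RodERV21-int, a rodent ERV1 internal part, had 84 and 114 peaks in KO and 54 and 14 in WT, a ratio of 1.21. RLTR14 had 39 and 41 in KO and 20 and 1 in WT (ratio 2.23), and RLTR24 had 20 and 24 in KO and 7 and 2 in WT (ratio 2.002). RLTR23, with 91 and 97 peaks in KO and 50 and 15 in WT, overlapped between genotypes in its share. RLTR41, with 58 and 118 in KO and 61 and 13 in WT, overlapped too. RMER5 in the shortened lists kept its direction with 17 and 15 peaks in KO and 6 and 12 in WT, as did RLTR14 with 8 and 8 in KO and 3 and 1 in WT, while RLTR24, with 6 and 3 in KO and 3 and 2 in WT, then overlapped.

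**Figure D3:**
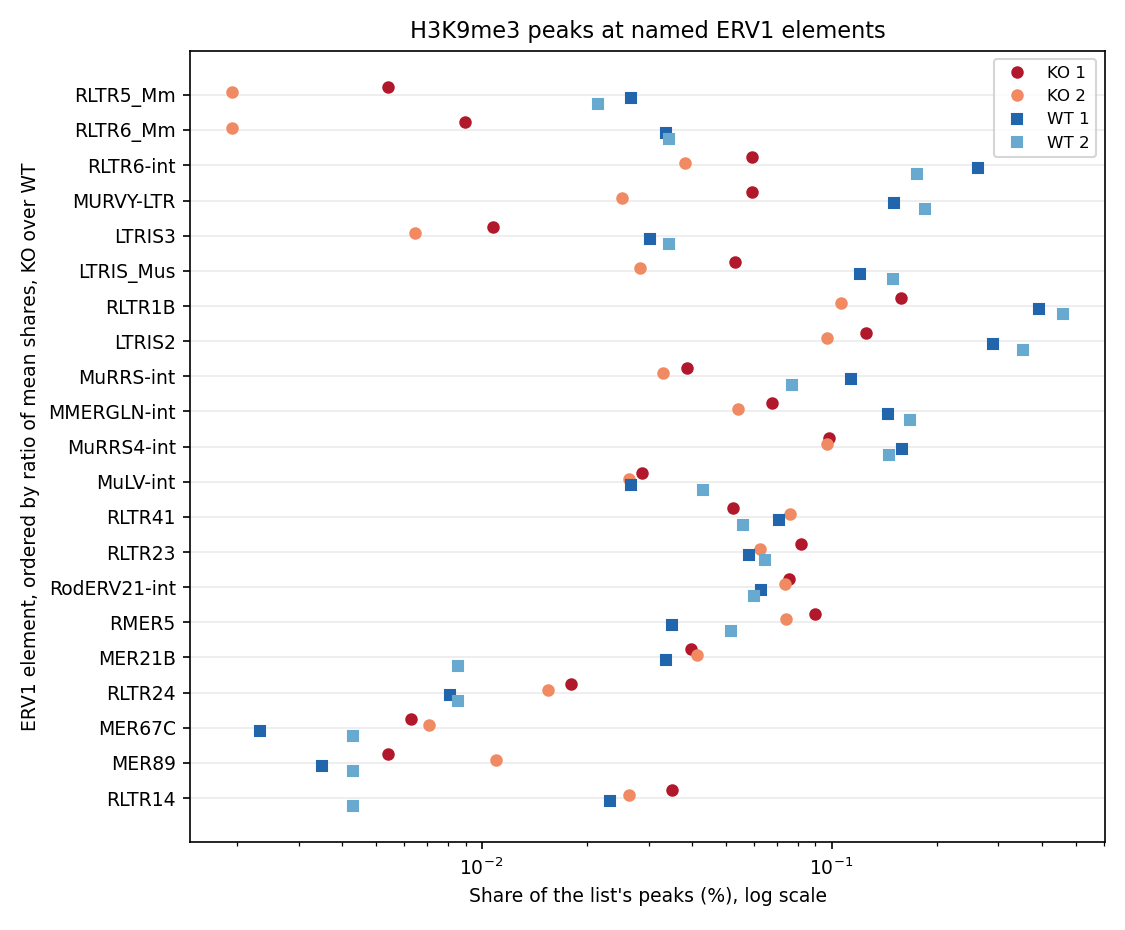
Share of each list's peaks held by 21 named ERV1 elements, in percent on a log axis, ordered from the lowest to the highest ratio of mean shares, KO over WT; circles are KO lists and squares WT lists. From RLTR5_Mm (ratio 0.152) to MuRRS4-int (0.638) both KO points lie left of both WT points, MuLV-int, RLTR41 and RLTR23 overlap, and the names from RodERV21-int (1.21) to RLTR14 (2.23) lie to the right in KO.

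MuLV-int, the internal part of murine leukaemia virus-like proviruses, had 32 and 41 peaks in KO lists and 23 and 10 in WT lists. Its share of the list was 0.0288% and 0.0265% in KO and 0.0268% and 0.0429% in WT, which overlapped. Among ERV1 peaks MuLV-int held 1.78% and 2.02% in KO and 0.970% and 1.57% in WT, a difference of 0.63 percentage points with both KO values higher. MuLV-int at equal list length had 15 and 14 peaks in KO and 8 and 10 in WT. Its share of the list was then higher in both KO lists, so that the full and the shortened lists differ on its direction. At equal list length WT replicate 2 keeps its whole list, while the other lists keep only their highest scores. Among peaks above the median score of their list, the ratio of shares was 0.721 for MuLV-int, with overlap. For the MuLV group it was 0.834 there, with both KO lists lower. The MuLV group as a whole, with RLTR4_MM-int, had 54 and 75 peaks in KO and 57 and 13 in WT, and its ratio of shares was 0.794 in full lists and 1.57 at equal list length, without overlap in either. MuLV-int peaks were 798 and 822 bp wide at the median in KO and 802 and 1262 bp in WT. Their median score percentile was 74.3 and 69.2 in KO and 63.5 and 83.6 in WT, and single peaks ranged from percentile 0.263 to 99.998.

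A MuLV-int region held the highest-scoring ERV1 peak of 3 of the 4 lists. It lay at chr5:23201557-23218151 (mm9, 16594 bp), in intron 3 of the noncoding transcript NR_015554 of AI506816. Its best peak ranked 3rd of all peaks in KO replicate 1 and 585th in KO replicate 2, against 9th and 11th in WT. The ERV1 peaks of a list in this region summed to 16000 and 3041 bp in KO and 16594 and 12640 bp in WT. The best one carried the authors' score of 828.7 and 77.8 in KO and 1599.9 and 1100 in WT, whose scales compare only roughly between lists. Rank and summed width were lowest in KO replicate 2, while KO replicate 1 lay close to the WT lists. In KO replicate 2 the highest ERV1 score was instead at an RLTR6-int peak 3846 bp from the start of Trim24 (chr6:37822133-37827182), ranked 63rd.

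MuLV-int peaks occurred in all 4 lists at 5 regions, which include the one on chromosome 5. At chr8:125948932-125959442 (10510 bp, intergenic, 12.6 to 15.5 kb from the nearest start, Def8 or the neuronal tubulin gene Tubb3) the summed width was 6706 and 2544 bp in KO and 10315 and 10180 bp in WT. At chr1:173409759-173419359 (intergenic, 19.1 to 20.7 kb from Alyref2) it was 7396 and 1541 bp in KO and 9462 and 3761 bp in WT. At chr1:172869852-172877266 (intergenic, 15.02 to 19.1 kb from Fcrla, an Fc receptor-like gene of B cells) it was 4675 and 635 bp in KO and 7414 and 5183 bp in WT, and the best score percentile was 99.7 and 77.4 in KO and 99.9 and 99.4 in WT. At chr3:41076306-41077631 (intergenic, 190 kb from Pgrmc2) it was 831 and 632 bp in KO and 901 and 500 bp in WT. Both summed KO widths lay below both WT widths at 2 of these 5 regions, those on chromosome 8 and near Fcrla. KO replicate 2 had the lowest best percentile of the 4 lists at 4 of the 5.

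The other 3 of the 5 ERV1 regions with the highest mean score percentile, among those with an ERV1 peak in every list, held LTRs. The region at chr6:129295956-129299819 (LTRIS4 and RLTR1B, intergenic) lay 1.77 to 2.48 kb from the start of Clec12a, an inhibitory lectin receptor of myeloid cells, with summed widths of 2944 and 3382 bp in KO and 3658 and 2650 bp in WT. The region at chr8:114496154-114500127 (RLTR1B) lay in intron 8 of Adat1, a tRNA-editing deaminase gene, with summed widths of 2696 and 3440 bp in KO and 3515 and 3967 bp in WT. The region at chr6:37769272-37773779 (RLTR14 and RMER5, intergenic, 49.1 to 49.3 kb from Trim24) had summed widths of 3450 and 3269 bp in KO and 4287 and 4390 bp in WT. All 3 stood above percentile 99.6 in every list, and the widths were below WT in both KO lists for the Adat1 and Trim24 regions.

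The lists shared ERV1 peaks more often than peaks in general. Of the ERV1 peaks of KO replicate 1, 57.3% were overlapped by at least 1 bp by a peak of KO replicate 2, against 48.7% of all its peaks, and 53.9% by a peak of WT replicate 1, against 27.4%. Of those of KO replicate 2, 45.5% were overlapped in KO replicate 1 (all peaks 34.3%) and 46.6% in WT replicate 1 (25.2%). Of those of WT replicate 1, 43.5% and 47.0% were overlapped in the KO lists (34.9% and 45.4% of all peaks) and 25.9% in WT replicate 2 (15.1%). Of those of WT replicate 2, 61.9% and 58.4% were overlapped in the KO lists (44.3% and 48.8%) and 85.7% in WT replicate 1 (57.4%). ERVK peaks were also shared more often than all peaks, in 11 of 12 ordered pairs, and ERV1 peaks more often than ERVK peaks in 12 of 12. The ERV1 share exceeded that of all peaks in each of the 12 ordered pairs, with a median of 46.8%. The median was 30.9% where 50% of the ERV1 peak had to be covered, and 28.2% where the overlapping peak had to be an ERV1 peak too. At equal list length it was again higher in each of the 12 pairs, from 35.1% against 34.3% for WT replicate 1 in KO replicate 2 to 74.0% against 40.2% for WT replicate 2 in WT replicate 1. Sharing was not compared at equal width or score, and ERV1 peaks were wider and scored higher than peaks in general. ERV1 peaks that were overlapped had higher scores and greater widths. In KO replicate 1, those found in KO replicate 2 had a median percentile of 81.6 and a width of 830 bp, against 46.6 and 500 bp for the others.

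Overlap differed between element groups. WT replicate 1 covered 79.6% of the MERGLN and RLTR1 peaks of KO replicate 1 and 70.7% of those of KO replicate 2. It covered 78.9% and 78.7% of the MURVY peaks and 66.8% and 60.1% of the MuRRS peaks. Of the older ERV1 peaks, WT replicate 1 covered 26.6% and 24.2%. For RLTR1B 154 of 175 peaks of KO replicate 1 (88.0%) and 136 of 165 of KO replicate 2 (82.4%) were overlapped in WT replicate 1. For RMER5 this held for 22 of 100 and 23 of 115. RLTR6-int was overlapped more unevenly: WT replicate 1 covered 45 of 66 peaks of KO replicate 1 (68.2%) and 24 of 59 of KO replicate 2 (40.7%), while the KO lists covered 46 and 25 of its own 226 peaks (20.4% and 11.1%). All 10 MuLV-int peaks of WT replicate 2 were overlapped in KO replicate 1 and in WT replicate 1, and 6 of the 10 in KO replicate 2.

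**Figure D4:**
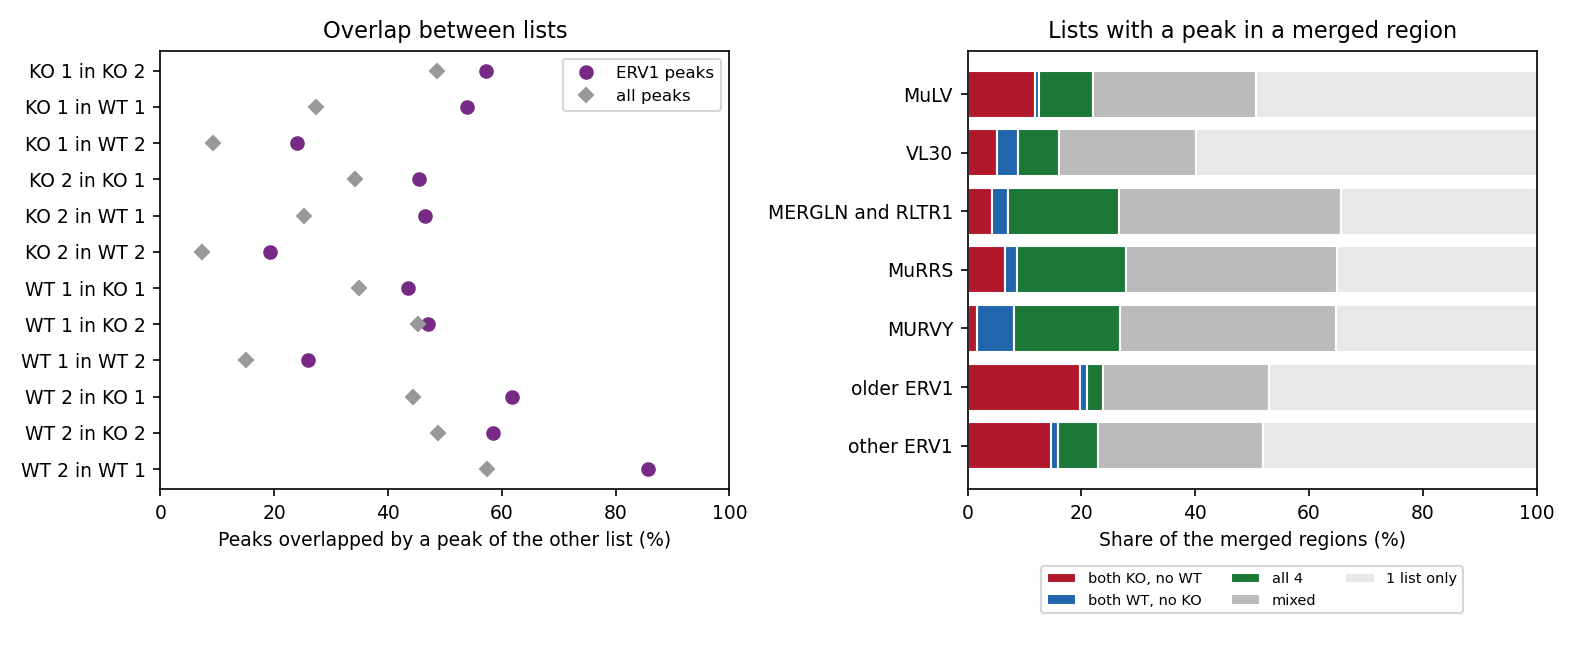
Left, share of ERV1 peaks (circles) and of all peaks (diamonds) of 1 list that a peak of another list overlaps by at least 1 bp, in percent, for the 12 ordered pairs; right, merged ERV1 regions of each group by the lists that have any peak there, in percent of the group's regions. The circles lie right of the diamonds in every pair, and regions with a peak in both KO lists and no WT list make up 19.7% of older ERV1 regions and 1.70% of MURVY regions.

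Merged over the lists, ERV1 peaks formed 4804 regions with a median width of 737 bp, of which 96.3% carried a single element name. A peak of any kind was present in all 4 lists at 550 regions (11.4%), against 3.06% of 250064 regions merged from all peaks. Regions with a peak in both KO lists and in no WT list numbered 478 (9.95%; 11.3% of all merged regions), and those in both WT lists and no KO list 106 (2.21%; 0.993%). A further 2102 regions (43.8%) had a peak in 1 list only. An ERV1 peak itself was called in all 4 lists at 113 regions. Of 1353 regions with an ERV1 peak in 2 lists or more, 1176 (86.9%) had the same element name in each.

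Regions present in all 4 lists were 19.5% of the MERGLN and RLTR1 regions, 19.1% of the MuRRS regions and 18.7% of the MURVY regions, and 2.75% of the older ERV1 regions. LTRIS2 and RLTR1B had 26.6% and 24.6% of their regions in all 4 lists. Regions in both KO lists alone made up 19.7% of older ERV1 regions (93 of 472) against 1.27% in both WT lists alone (6). RMER5 had 45 of 238 regions in both KO lists alone and 0 in both WT lists alone, and MER21B had 23 of 121 and 0. MURVY-LTR was the reverse, with 3 of 192 regions in both KO lists alone and 13 in both WT lists alone, and so was LTRIS_Mus with 2 and 11 of 164. RLTR1B had 13 and 13 of 484. The length of the WT replicate 2 list limits how many regions can be counted as WT alone.

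RNA of genes near ERV1 peaks was set beside the peaks, although it came from cells expanded in vivo. The FPKM values of single genes are given without rescaling. KO DP replicates 3 and 4 had the lowest column sums, 292872 and 183632, against at least 441903 in the other libraries. Ehmt2 itself had 20.9, 23.6, 12.8 and 7.28 FPKM in KO DP, 12.6 and 13.6 FPKM in KO SP and 18.1, 42.6, 27.0 and 21.6 FPKM in WT SP libraries. The KO SP values lay below all WT SP values, the KO DP values overlapped them, and neither comparison passed (limma, adjusted p 0.938 for KO SP and 0.205 for KO DP); which exons were deleted is not given in the sources used here, and reads outside them would not report the deletion. All 10 libraries had the T cell markers Cd3e (105 to 904 FPKM) and Cd8b1 (248 to 1511 FPKM), and Cd4 was 49.5 to 178 FPKM in KO DP, 0.192 and 0.222 FPKM in KO SP and 0.144 to 0.495 FPKM in WT SP. The B cell gene Cd79a was also present, in ranges that overlapped between the groups. The erythroid gene Hba-a1 split by title number: it was 533 and 856 FPKM in KO DP and 362 and 650 FPKM in WT SP libraries titled 34 to 37, but 0.207 and 3.70 FPKM in KO DP, 47.7 and 1.93 FPKM in KO SP and 4.40 and 11.6 FPKM in WT SP libraries titled 738 to 741. The myeloid genes Lyz2 and C1qb were likewise higher in the first set. KO SP libraries come from the second set alone, and WT SP libraries from both. Lyz2 and C1qb overlapped between KO DP and WT SP, while both KO SP libraries lay below all WT SP libraries (Lyz2 4.95 and 4.85 FPKM against at least 6.63 FPKM, C1qb 1.49 and 1.85 FPKM against at least 1.99 FPKM). KO and WT libraries differed in sex-linked RNA. Xist was 2.59 to 4.58 FPKM in KO DP, 1.88 and 2.96 FPKM in KO SP and 0.0134 to 0.0338 FPKM in WT SP, and the Y-linked Ddx3y was 0.1003 to 0.543 FPKM in KO DP, 0.0626 and 0.193 FPKM in KO SP and 21.5 to 27.9 FPKM in WT SP, so that sex and genotype cannot be told apart in the RNA.

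Genes were taken as near where the deposited annotation gave them as nearest to an ERV1 peak, within 10000 bp of the TSS, in at least 1 list of each genotype. There were 160, of which 147 were in the RNA table and 87 passed the minimum of 0.5 FPKM on average. In KO SP against WT SP none of the 87 passed (limma on log2(FPKM + 1), Benjamini-Hochberg over 11162 genes). Of all genes tested 0.116% passed, 0.0717% higher and 0.0448% lower. An unadjusted limma p under 0.05 was reached by 3 of the 87 near genes and by 384 of all 11162 genes. None of the 87 passed after scaling by median ratios either (0.188% of all genes). Within the libraries titled 738 to 741, 3 of 86 passed (0.997% of all genes). With the replicate block 0 genes of 10808 passed. That block joins the KO SP libraries, titled 738 and 739, to WT SP libraries titled 36 and 37, the other title set. It therefore cannot show whether a pairing changes the count. In KO DP against WT SP 6 of 87 passed, 3 higher and 3 lower (6.90%), against 7.89% of all genes tested, 2.86% higher and 5.03% lower. The median log2 difference of the 87 was -0.39, beside -0.38 for all genes, so they stood where genes in general stood. With a block on the replicate number 13 passed (5 higher and 8 lower, 14.9%), against 15.8% of all genes. That block was taken as a pairing, and it also follows the title sets. Scaled by median ratios, which removes the shift of all genes, 15 passed (8 higher and 7 lower, 17.2%), against 17.6%. Within the libraries titled 34 to 37 1 of 87 passed, against 1.41% of all genes. Within those titled 738 to 741 55 of 86 passed, against 57.1% of all genes. The count also moved with single libraries: 10 passed without KO DP replicate 1, 2 without KO DP replicate 3 or WT SP replicate 3, and 3 without WT SP replicate 1 or 4 or either KO SP library. The share of all genes that passed is not given for these fits without 1 library. Their counts therefore cannot be read as particular to genes near ERV1 peaks. In bulk RNA fewer cells of a type and less RNA per cell cannot be told apart.

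Tktl1, a transketolase-like gene on chromosome X with a MURVY-LTR peak 1.64 kb from its start in KO replicate 2 and WT replicate 2, had 5.01, 5.61, 5.04 and 5.32 FPKM in KO DP, 5.12 and 1.90 FPKM in KO SP and 0.183, 0.307, 0.0626 and 0.153 FPKM in WT SP. All KO libraries lay above all WT libraries. The log2 difference was 2.41 ± 0.25 (SE, limma) in KO DP, adjusted p 1.93e-04, and 1.84 ± 0.31 in KO SP, adjusted p 0.0508, which did not pass. In KO SP Tktl1 passed with a pseudocount of 0.1 (adjusted p 0.0131), without KO SP replicate 2 (0.0250) and within titles 738 to 741 (0.0334). In KO DP Tktl1 kept its call without each of the 10 libraries and within both sets of titles. The part of sex in the difference was not tested.

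Dctd, which encodes deoxycytidylate deaminase and has an RLTR1B peak 4.41 kb away, had 1.72, 1.02, 1.44 and 0.912 FPKM in KO DP and 5.90, 3.29, 6.03 and 5.05 FPKM in WT SP, without overlap. It fell by 1.40 ± 0.27 on the log2 scale in KO DP (limma, adjusted p 0.00952). KO SP libraries had 4.85 and 8.43 FPKM, within or above the WT range (adjusted p 0.938). Dctd kept its KO DP call without each of the 10 libraries, but not within titles 34 to 37 (adjusted p 0.190).

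Clec12a had 1.74, 1.25, 2.09 and 2.46 FPKM in KO DP, all above the 0.571, 1.04, 0.299 and 0.413 FPKM of WT SP, a log2 difference of 0.87 ± 0.23 (limma, adjusted p 0.0395). KO SP had 1.05 and 0.805 FPKM. The H3K9me3 region beside Clec12a was called in all 4 lists of both genotypes. Lyz2 averaged 20.9 ± 19.5 FPKM in KO DP and 19.6 ± 13.8 FPKM in WT SP (SD, n = 4 each), and C1qb 16.6 ± 19.9 FPKM in KO DP and 11.0 ± 10.7 FPKM in WT SP. Clec12a lost its call without KO DP replicate 3 or 4, without WT SP replicate 1, 3 or 4, and without either KO SP library, with adjusted p from 0.0612 to 0.141, and within titles 34 to 37 (adjusted p 0.409). With no filter on low values Clec12a (adjusted p 0.0627), 1700056E22Rik (0.0645) and Gpd1l (0.0716) did not pass either, nor did Gpd1l with a pseudocount of 0.1 (0.05002).

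The other 3 genes that passed in KO DP were 2810429I04Rik, a noncoding RNA gene (log2 difference 0.98, adjusted p 0.0224 by limma), 1700056E22Rik (-0.90, adjusted p 0.0369) and Gpd1l, a glycerol-3-phosphate dehydrogenase-like gene (-1.06, adjusted p 0.0485). Gpd1l had 15.8, 14.5, 12.8 and 6.66 FPKM in KO DP and 24.1, 20.7, 31.0 and 28.9 FPKM in WT SP, and did not pass with the replicate block (adjusted p 0.0660). Gpd1l also lost its call without KO DP replicate 2 or 3, WT SP replicate 1, 3 or 4, or either KO SP library, and 2810429I04Rik without KO DP replicate 3 or WT SP replicate 1 or 3. 1700056E22Rik lost its call whichever of the 10 libraries was left out, with adjusted p from 0.0505 to 0.130. None of the 3 passed within titles 34 to 37. AI506816, which holds the MuLV-int region on chromosome 5 in its intron, had 1.41, 6.04, 1.54 and 2.20 FPKM in KO DP, 1.48 and 6.12 FPKM in KO SP and 12.7, 8.81, 7.21 and 4.61 FPKM in WT SP. The groups overlapped, and neither comparison passed (limma, adjusted p 0.0768 in KO DP and 0.938 in KO SP); with the replicate block the KO DP difference of -1.37 did (adjusted p 0.00406).

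**Figure D5:**
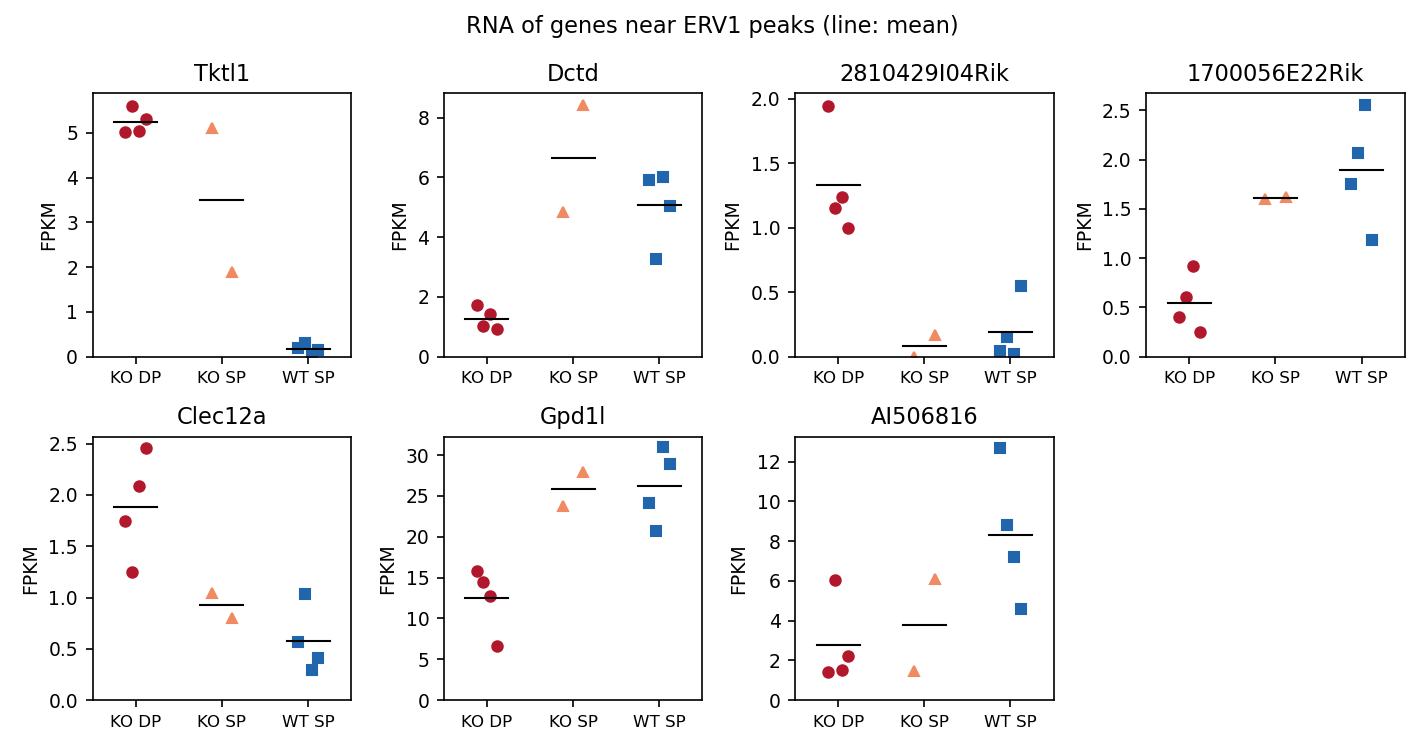
RNA level in FPKM of the 6 genes near ERV1 peaks that passed in KO DP against WT SP and of AI506816; each point is 1 library, the line is the group mean, and groups are KO DP (n = 4), KO SP (n = 2) and WT SP (n = 4). Tktl1 lies between 1.90 and 5.61 FPKM in KO libraries and below 0.31 FPKM in WT libraries, while all 4 KO DP points of Dctd and Gpd1l lie below all 4 WT SP points.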

How the data were processed

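H3K9me3 was profiled in 4 libraries and RNA in 10; the 4 input libraries have no peak list and were not used here. Per the submitters' processing notes, ChIP reads were processed with Bowtie and HOMER, and RNA with TopHat and Cufflinks, on mm9. Tool versions, the peak calling threshold and any use of the inputs were not given there. Each peak list came from 1 library, with the peak score the authors deposited, used only to rank peaks within a list; its scaling is not stated. The deposited RNA values are FPKM, per the file headers one column per library, which carry no read counts, so depth is unknown. Column sums were 292872 and 183632 in KO DP replicates 3 and 4 and 441903 to 504013 in the other libraries. No rescaling was applied in the main fit. The RNA table holds 16 other per-sample columns, which were not used.

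Element groups, members and gene rules were chosen with earlier results of these data known. LTR and internal parts were told by the suffix -int. Named elements were MuLV-int, the 12 most frequent names by mean share of ERV1 peaks, and up to 5 names each way with non-overlapping shares; named regions were the 5 highest by mean score percentile with an ERV1 peak in all 4 lists, and MuLV-int regions likewise; named genes were called near genes, Ehmt2 and genes within 10000 bp of named regions. Xist and Ddx3y were added after their values were seen. Peaks were compared in Python 3 with pandas and numpy, with overlap of at least 1 bp. Lines with 1 symbol were summed. The 11162 genes that averaged 0.5 FPKM or more entered limma (3.58.1, R 4.3.3) as log2(FPKM + 1), with the trend option, 1 spread over all 10 libraries and a threshold of 0.05. A pseudocount of 1 understates changes of low genes. The overlap code and the limma fit were tested on simulated data. The kits named in the labels' protocols do not mark strand, so overlapping antisense genes cannot be told apart. Whether libraries came from separate animals is not in the labels, so the spread behind the p-values may be technical. KO DP replicates 3 and 4 and KO SP replicates 1 and 2 share the title numbers 738 and 739, and both comparisons share the WT SP libraries. Replicate numbers come from the labels' descriptions; deviations of same-numbered KO DP and WT SP libraries correlated at 0.119, 0.293, 0.111 and 0.103, so the block was taken as a pairing. KO DP replicates 3 and 4 correlated higher, at 0.201 and 0.243, with the other WT SP library of their title set, so the block also follows those sets. For KO SP the same-numbered deviations correlated at -0.034 and -0.110. There the block crosses the title sets, joining 738 with 36 and 739 with 37.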

Additional observations from a re-analysis of the deposited data

Results flagged for a closer look

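AI506816, the noncoding gene whose intron holds the strongest MuLV-int region, had 6.04 FPKM in KO DP replicate 2, far above the 1.41, 1.54 and 2.20 FPKM of the other KO DP libraries. The gap was 0.83 of the range of the group. Among 16 groups of 4 libraries examined this was the only one with such a gap, and about 1 in 20 such groups shows one by chance alone. Without KO DP replicate 2 the log2 difference of AI506816 in KO DP against WT SP was -1.72 (limma, adjusted p 0.0319), against -1.37 (adjusted p 0.0768) with it.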

How the results depend on the processing

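The KO minus WT differences in ERV1 share of peaks, share of covered length, MuLV-int share of ERV1 peaks and score percentile kept their sign under every alternative run. At equal list length the peak share difference was -0.99 points, the MuLV-int difference 1.19 points, and 7 names were higher and 7 lower; the width difference of -59 bp turned to 437 bp. With only peaks above the median score of their list, the differences were -1.84 points of peaks and -2.80 points of covered length. Of the names, 7 were then higher and 18 lower. Among peaks annotated to a repeat the difference was -1.86 points, and with at least 100 peaks per name 5 names were higher and 13 lower. Leaving out each list in turn gave -1.43 to -1.13 points of peaks, -2.26 to -1.84 points of covered length, 0.33 to 0.93 points for MuLV-int, 9 to 11 names higher and 21 to 24 lower, and -121 to 3 bp of width, the last without WT replicate 1. Chosen after seeing the data, leaving out chromosomes X and Y gave 11 names higher and 21 lower. Apart from equal list length, the share over all repeat names is not given for these alternatives. Their counts of names therefore have no background to be read against.

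The peak lists were described and not tested, so no paired fit was made on them. In KO SP against WT SP the replicate block crosses the title sets, so its results there are not those of a pairing. For near genes in KO SP against WT SP, 1 passed with a pseudocount of 0.1, 0 with the replicate block, 0 to 1 with each library left out, and 3 within titles 738 to 741. In KO DP against WT SP, 15 passed after scaling and 13 with the replicate block. Within 2000 bp 1 of 5 passed, and with an ERV1 peak in any list 17 of 211. Leaving out each KO DP or WT SP library gave 2 to 10, without the share over all genes beside these counts. Within titles 34 to 37 and 738 to 741, 1 and 55 passed. The cause of these changes was not tested. Uncalled KO SP differences crossed 0: Gpd1l reached 0.20 with the replicate block and ranged from -0.12 to 0.11 with each library left out, 2810429I04Rik from -0.23 to 0.014, and Dctd from -0.024 to 0.66. The short list of WT replicate 2 and 2 lists per genotype limit every peak comparison.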
